A study of Mus musculus with 6 samples.

Results

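The 10 genes described here encode the 4 STEAP metalloreductases (Steap1, Steap2, Steap3 and Steap4) and 6 proteins that take up, store, export or sense cellular iron (Tfrc, Slc11a2, Fth1, Ftl1, Slc40a1 and Aco1). They were found by symbol among the 21769 gene IDs present in all 6 files, each symbol with 1 Ensembl ID. All 10 passed the filter of a mean of at least 1 FPKM (fragments per kilobase of exon, scaled to the size of the library) over the 6 libraries, among 10976 genes that did. Slc40a1 passed only through its level in CIH 3, which was 7.98 FPKM, beside 1.34 in control 3 and at most 0.225 in the gene tables. The 10 genes were chosen by what they encode and with their FPKM differences between CIH and control in these same libraries already known, so their values are given as a description, without p-values.

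The cells were 3T3-L1, a mouse fibroblast line that can be turned into adipocytes, of wild-type genotype, induced with insulin and then kept in 0.1 µM insulin until day 8. Libraries 1 to 3 of the control group came from untreated cells and libraries 1 to 3 of the CIH group from cells given chronic intermittent hypoxia, that is, repeated spells of low oxygen. The sources used here do not state oxygen levels or cycle lengths. Nothing in the labels says that libraries came from separate cultures, so p-values measure only how far these libraries differ among themselves, a spread that may be technical. In these bulk samples fewer cells of a type and less RNA per cell cannot be told apart.

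Replicates 1 and 2 were deposited as gene tables and replicate 3 of both groups as transcript tables, so CIH 1 and 2 were compared with control 1 and 2, and CIH 3 with control 3, separately. A level in a gene table cannot be set against one in a transcript table. The gene tables rest on an estimated 25733850, 27991186, 26156425 and 27438221 fragments in control 1, control 2, CIH 1 and CIH 2, as read from the whole-number steps of their values, and the depth of the transcript tables is unknown. The summed level of 14 adipocyte markers was 8278 and 8838 FPKM in the controls of replicates 1 and 2 and 7444 and 6589 in their CIH counterparts, but 30561 in control 3 and 688 in CIH 3. All 14 were lower in CIH 3 than in control 3. The 10 preadipocyte or fibroblast markers summed to 347 and 366 FPKM in control 1 and 2, to 557 and 552 in CIH 1 and 2, and to 1064 and 5537 in control 3 and CIH 3, with all 10 higher in CIH 3. CIH 3 therefore went against its adipocyte label in its markers. In replicates 1 and 2, 8 of 13 tested adipocyte markers fell and 0 rose, while 7 of 9 tested preadipocyte markers rose and 2 fell. The 8 macrophage markers summed to 9.29 and 9.20 FPKM in control 1 and 2, 7.73 and 8.22 in CIH 1 and 2, 6.36 in control 3 and 12.6 in CIH 3. Most of this was Cd14 and Cd68, Adgre1 was listed at 0 in all 6, and 4 of the 8 were higher and 2 lower in CIH 3 than in control 3. The 8 erythroid markers summed to 3.73 and 3.64 FPKM in control 1 and 2, 8.49 and 6.84 in CIH 1 and 2, 4.13 in control 3 and 6.48 in CIH 3. Of these only Epor, the erythropoietin receptor, was tested, and it rose from 3.15 and 3.22 to 8.19 and 6.63 FPKM in replicates 1 and 2. Epor was 3.88 in control 3 and 3.50 in CIH 3, and in that pair 5 of the 8 were higher in CIH 3 and 2 lower. The 5 hepatocyte and 5 endothelial markers did not exceed 0.495 FPKM in any library.

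Iron enters most cells as ferric iron on transferrin, which binds the transferrin receptor (Tfrc) and is taken into endosomes. There a STEAP reductase turns ferric into ferrous iron and the divalent metal transporter (Slc11a2) carries it to the cytosol. Surplus iron is stored in ferritin, a shell of heavy (Fth1) and light (Ftl1) chains, or leaves through ferroportin (Slc40a1). Iron regulatory protein 1, the product of Aco1, binds a stem-loop called the iron-responsive element when iron is scarce: in the 5′ UTR this blocks translation, and in the 3′ UTR of Tfrc it protects the mRNA. In adipocytes Steap4 is known as a gene induced by tumour necrosis factor and tied to metabolic inflammation.

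The stem-loops are shown because iron acts through them on the mRNAs of the ferritins, ferroportin and the transferrin receptor. UTRs of protein-coding transcripts in GENCODE mouse release 21 were searched on the mRNA strand for a C, any 5 bases, CAGTG and any 1 base, followed by 5 bases that pair, with G-T pairs allowed, with those after the first C. Capitals mark that first C, which bulges from the stem, and the CAGTG of the loop, and 6 flanking bases are given where the UTR holds them. All lines are mRNA sense, 5′ to 3′, with T for U, and coordinates are GRCm38.
Fth1 5′ UTR, exon 1 (chr19:9982732-9982760, plus strand): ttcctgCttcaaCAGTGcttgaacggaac
Ftl1 5′ UTR, exon 1 (chr7:45459779-45459807, minus strand): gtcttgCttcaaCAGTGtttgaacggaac
Slc40a1 5′ UTR, exon 1 (chr1:45925465-45925493, minus strand): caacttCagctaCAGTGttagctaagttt
Tfrc 3′ UTR, exon 19, first site (chr16:32631219-32631247, plus strand): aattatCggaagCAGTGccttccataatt
Tfrc 3′ UTR, exon 19, next site (chr16:32631598-32631626, plus strand): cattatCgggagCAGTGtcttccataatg
Tfrc 3′ UTR, exon 19, next site (chr16:32631663-32631691, plus strand): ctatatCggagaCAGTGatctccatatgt
Tfrc 3′ UTR, exon 19, last site (chr16:32631710-32631738, plus strand): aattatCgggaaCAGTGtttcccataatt

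These 7 sites lie in 4 of the 10 members, and the element of Fth1 and that of Ftl1 share the same upper stem and loop apart from the base after the capitals. No site with all 5 pairs was found in the UTRs of Steap1, Steap2, Steap3, Steap4, Slc11a2 or Aco1. This search finds no site with a mismatch in the stem, so it does not show that these UTRs lack an element, and Slc11a2 is known for one in the 3′ UTR of some of its transcripts. Such a site was found in the 5′ UTR of 28 of 20857 genes (0.134%) and in the 3′ UTR of 127 of 21643 (0.587%). The letters without the pairing were found in 10.5% and 34.4%. UTRs differ in length, so these shares are over UTRs as annotated.

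In replicates 1 and 2, cells given CIH held more mRNA for both ferritin chains, for Steap1 and Steap4 and, by less, for Tfrc, and less for Slc11a2. Aco1 and Slc40a1 overlapped between the groups. By limma (adjusted p under 0.05 over all 10976 genes), 7 of the 10 were called, 6 higher and 1 lower in CIH, where 39.1% of all genes were called, 18.2% higher and 20.9% lower. In 8 of the 10 the groups did not overlap, against 74.0% of all genes. The median difference of the 10 was 0.40 on the log2(FPKM + 1) scale, beside −0.01 for all genes. The genes were chosen with this contrast known, so nothing is read from these counts. Without control 1, 4 of the 10 were called.

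**Figure D1:**
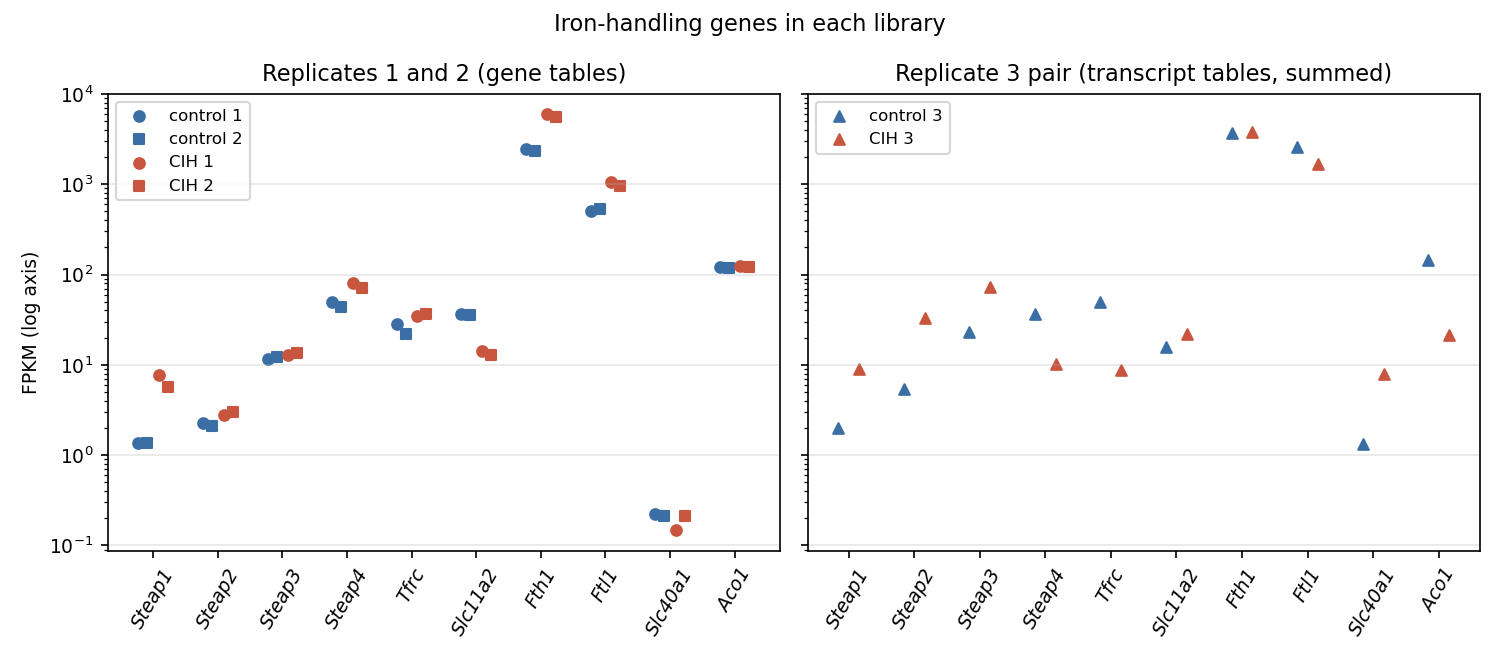
FPKM of the 10 genes on a log axis in each library, with controls in blue, CIH in red and one marker shape per replicate number; gene tables are on the left and transcript tables on the right. The points of Fth1, Ftl1, Steap1 and Steap4 in CIH 1 and 2 lie above those of control 1 and 2, and those of Slc11a2 below.

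Among the metalloreductases, Steap1 showed the largest difference in replicates 1 and 2. The protein it encodes lacks the NADPH-binding domain of the other family members. Steap1 (chr5:5736317-5749326) was 1.35 and 1.38 FPKM in control 1 and 2, resting on 48 and 53 fragments, and 7.66 and 5.72 in CIH 1 and 2, resting on 276 and 216. Both CIH libraries lay above both controls, with means of 1.36 ± 0.0145 and 6.69 ± 1.38 FPKM (SD, n = 2), a 4.90-fold ratio of means and a difference of 1.69 on the log2(FPKM + 1) scale. Steap1 was 1.98 FPKM in control 3 and 9.01 in CIH 3, a ratio of 4.54. It was the only member called by limma when all 6 libraries were fitted together with the kind of table as a covariate. In that fit 0.574% of all genes were called. Steap1 was chosen with its differences in these libraries known, so nothing is read from this call.

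Steap4 (chr5:7960457-7982213) was the most abundant family member in the gene tables. Its level was 49.9 and 44.0 FPKM in control 1 and 2, against 80.2 and 71.7 in CIH 1 and 2, so the groups did not overlap, with means of 46.9 ± 4.17 and 75.98 ± 5.999 FPKM (SD, n = 2), a ratio of 1.62. The replicate 3 pair went the other way, with 36.8 FPKM in control 3 and 10.3 in CIH 3, 3.58-fold lower.

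Steap2 (chr5:5664829-5694578), the gene beside Steap1, encodes a ferric and cupric reductase. It was 2.25 and 2.09 FPKM in control 1 and 2, against 2.75 and 3.02 in CIH 1 and 2, a ratio of means of 1.33 with no overlap. Its call was lost when any 1 of the 4 libraries was left out, with the replicate number as a block, with an offset of 0.1 in place of 1, without the filter and with every library scaled to the same total. Steap2 was 5.36 FPKM in control 3 and 33.4 in CIH 3, 6.22-fold higher, summed over 7 transcript entries of which the largest held 1.68 and 10.9.

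Steap3 (chr1:120190757-120272705) encodes the main ferrireductase of transferrin endosomes in red cell precursors. Its values were 11.7 and 12.3 FPKM in control 1 and 2, against 12.8 and 13.6 in CIH 1 and 2. The groups did not overlap, but the gap was small beside the spread, and limma did not call it. It was 23.1 FPKM in control 3 and 72.0 in CIH 3, 3.12-fold higher.

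Summed over the family, STEAP mRNA was 65.2 and 59.8 FPKM in control 1 and 2, against 103 and 94.1 in CIH 1 and 2. Steap4 made up 76.5% and 73.6% of the sum in these controls and 77.6% and 76.2% in CIH 1 and 2, so its share moved little. The share of Steap1 went from 2.08% and 2.30% to 7.41% and 6.07%. The sum was 67.2 FPKM in control 3 and 125 in CIH 3, and there the make-up differed: Steap4 took 54.7% in control 3 and 8.24% in CIH 3, while Steap3 took 34.4% and 57.8% and Steap2 7.98% and 26.8%. Preadipocyte markers were higher in CIH 3 and adipocyte markers lower, as given above, and their part in this change of make-up was not tested.

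**Figure D2:**
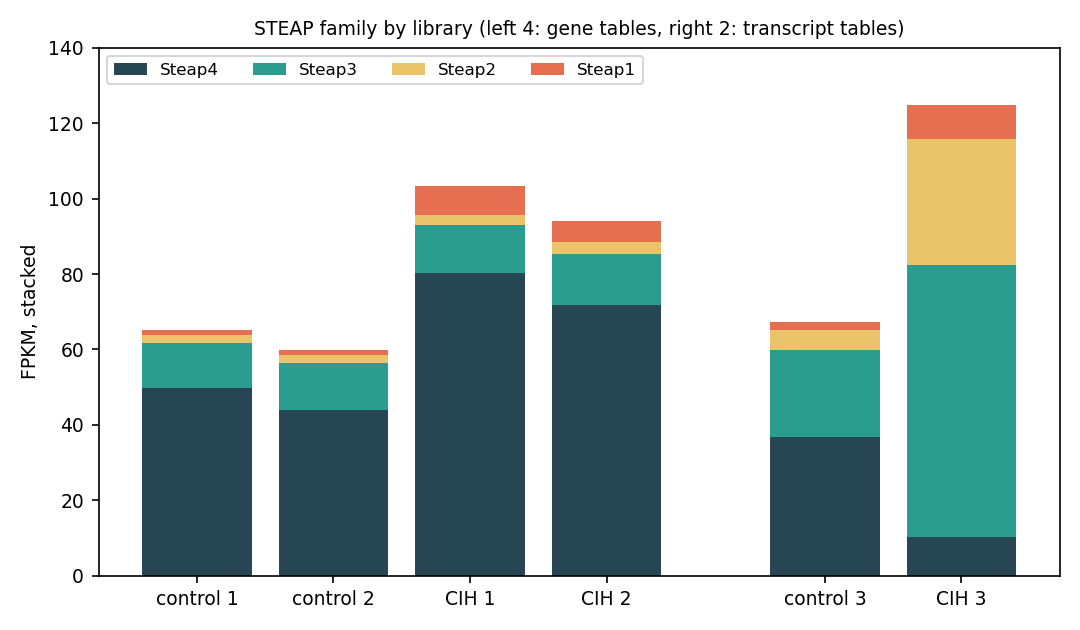
FPKM of the 4 STEAP genes stacked for each library, gene tables in the left 4 bars and transcript tables in the right 2. Steap4 makes up most of the bars of replicates 1 and 2, from 73.6% to 77.6%, and 8.24% of the CIH 3 bar.

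Tfrc (chr16:32608920-32632794), the transferrin receptor and a known target of hypoxia-inducible factors, was 28.0 and 22.2 FPKM in control 1 and 2. CIH 1 and 2 gave 34.8 and 37.0, both above the controls, with means of 25.1 ± 4.07 and 35.9 ± 1.56 FPKM (SD, n = 2), a ratio of 1.43. Tfrc was no longer called by limma when CIH 1 or CIH 2 was left out, or with every library scaled to the same total. In the replicate 3 pair it was 49.4 FPKM in control 3 and 8.87 in CIH 3, 5.57-fold lower.

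Slc11a2 (chr15:100387898-100425072), which encodes the divalent metal transporter, was the only member called lower in replicates 1 and 2. It was 36.3 and 35.7 FPKM in control 1 and 2, against 14.3 and 12.9 in CIH 1 and 2, resting on 5931, 6346, 2371 and 2250 fragments. The control libraries differed from each other by far less than from either CIH library, and the means of 36.0 ± 0.418 and 13.6 ± 0.962 FPKM (SD, n = 2) made CIH 2.65-fold lower. Gm5475, annotated across this gene on the opposite strand, did not exceed 0.231 FPKM in a gene table. CIH 3 (21.97 FPKM) was 1.39-fold higher than control 3 (15.8), over 6 transcript entries. That log2 difference of 0.45 became 1.05 with scaling to the same total and 0.04 by the median of ratios, so its size is not stable.

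Ferritin mRNAs were the most abundant of the set in every library. Fth1 (chr19:9980598-9985098) was 2432 and 2352 FPKM in control 1 and 2, against 5955 and 5534 in CIH 1 and 2, with no overlap and means of 2392 ± 57.1 and 5745 ± 298 FPKM (SD, n = 2), a ratio of 2.40. Limma did not call it when control 1 or control 2 was left out, with the replicate number as a block, or without the filter on low values. Fth1 was 3703 FPKM in control 3 and 3830 in CIH 3. That difference of 0.05 in log2 became −0.39 with scaling by the median of ratios and −0.13 by the upper quartile, so it has no stable direction.

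Ftl1 (chr7:45457944-45459884) was 511 and 530 FPKM in control 1 and 2, against 1046 and 957 in CIH 1 and 2, with means of 520.3 ± 13.6 and 1002 ± 62.8 FPKM (SD, n = 2), a ratio of 1.93. Both CIH libraries were above both controls, and the call was lost without control 1. Control 3 gave 2598 FPKM and CIH 3 1657, 1.57-fold lower. That log2 difference of −0.65 became −0.02 with scaling to the same total and −1.09 by the median of ratios, so its size is not stable. Near-identical copies of ferritin genes can share fragments. By symbol, 14 other ferritin-like genes and pseudogenes were found, the Fthl17 family among them. Their sequences were not compared, and copies under other symbols were not looked for. Ftl1-ps1 was 10.3 and 12.8 FPKM in control 1 and 2, against 27.2 and 20.6 in CIH 1 and 2. None of the other 13 exceeded 1.66 FPKM in any library that lists it.

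The level of Fth1 divided by that of Ftl1 was 4.76 and 4.44 in control 1 and 2, against 5.69 and 5.78 in CIH 1 and 2. It was 1.43 in control 3 and 2.31 in CIH 3, so the ratio was higher in CIH in both kinds of table. The ratio itself is not comparable between them. The exons of Fth1 joined over all transcripts span 3469 bases, against 929 for a coding transcript of this gene, and those of Ftl1 span 1340 against 968. With 1340 bases the values of Ftl1 in the gene tables came out as whole fragments, so gene-table levels are per joined exon length. For Fth1 the numbers were too large for that check.

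Slc40a1 (chr1:45908068-45926523), the only known cellular iron exporter, was near the lower limit in the gene tables. It was 0.225 and 0.210 FPKM in control 1 and 2, against 0.149 and 0.211 in CIH 1 and 2, resting on 52, 53, 35 and 52 fragments, and the groups overlapped. In the transcript tables it was 1.34 FPKM in control 3 and 7.98 in CIH 3, 5.97-fold higher.

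Aco1 (chr4:40143081-40198338), which encodes cytosolic aconitase and, without its iron-sulphur cluster, iron regulatory protein 1, was the steadiest member in replicates 1 and 2. It was 122 and 119 FPKM in control 1 and 2, against 126 and 120 in CIH 1 and 2, so the groups overlapped. In the transcript tables it was 143 FPKM in control 3 and 21.5 in CIH 3, 6.65-fold lower.

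Ordered by mean level in control 1 and 2, the members ran from Fth1 and Ftl1 through Aco1, Steap4, Slc11a2, Tfrc, Steap3, Steap2 and Steap1 to Slc40a1, and no neighbours overlapped. In CIH 1 and 2 Tfrc stood above Slc11a2 and Steap1 above Steap2. Slc11a2 (14.3 and 12.9 FPKM) and Steap3 (12.8 and 13.6) then overlapped. The order between genes depends on the joined exon length, which is 1377 bases for Steap1 and 12144 for Steap2. In fragments Steap1 (276 and 216) was below Steap2 (874 and 1007) in CIH 1 and 2. Fth1, Ftl1 and Aco1 led in control 3 as well. In CIH 3 Fth1 and Ftl1 were followed by Steap3 and Steap2, with Tfrc and Slc40a1 last.

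In the replicate 3 pair 6 of the 10 were higher in CIH 3 and 4 lower, beside 6796 higher and 4170 lower of 10976 tested genes. On the log2(FPKM + 1) scale 4 were at least 2-fold higher (Steap1, Steap2, Steap3 and Slc40a1), where 21.8% of all genes were. A further 3 were at least 2-fold lower (Steap4, Tfrc and Aco1), where 11.8% of all genes were. Slc40a1 passed the filter only through its level in CIH 3, so nothing is read from its place among the 4. Either way, 33.6% of all genes were at least 2-fold apart, and 7 of the 10 members. Genes of the mitochondrial genome held 43.7% of the summed FPKM in control 3 and 22.4% in CIH 3, and their part in these differences was not tested. The median of all genes in this pair was 0.26. It moved to 0.84 with scaling to the same total and to −0.13 by the median of ratios. These 7 members kept their direction under each scaling. Beside them, all 14 adipocyte markers were lower and all 10 preadipocyte markers higher in CIH 3, and their part in the members' differences was not tested. Of the 7 members called in replicates 1 and 2, Steap1, Steap2 and Fth1 differed the same way in the replicate 3 pair, Fth1 by 0.05 only. Of all 4292 genes called in replicates 1 and 2, 2351 did so.

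**Figure D3:**
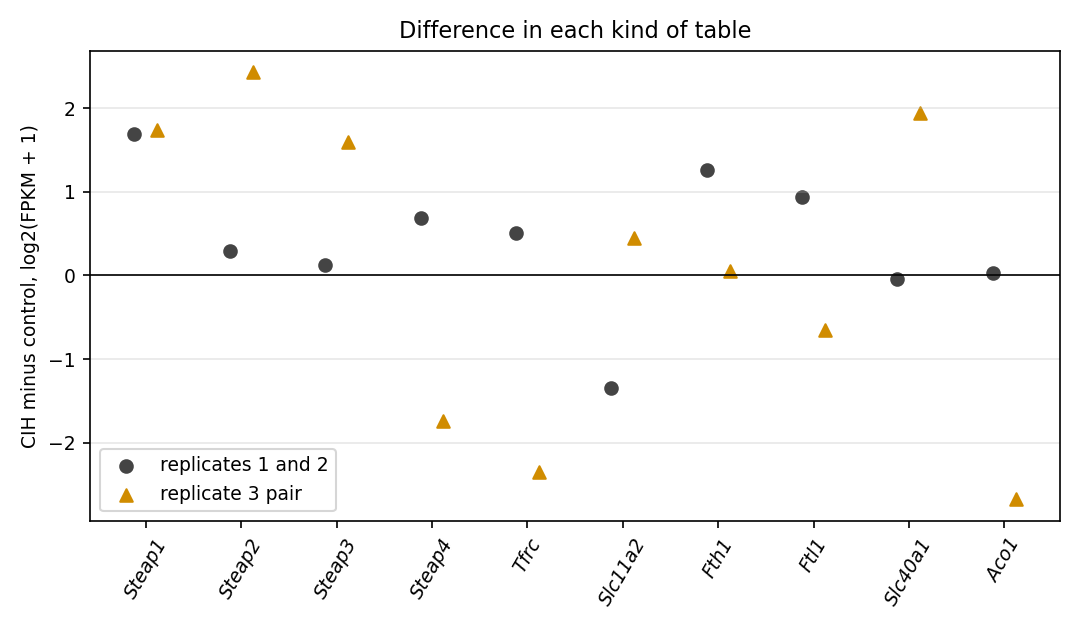
CIH minus control on the log2(FPKM + 1) scale for the 10 genes, circles for replicates 1 and 2 and triangles for the replicate 3 pair. Steap1 shows 1.69 and 1.75, while Steap4 (0.68 and −1.74) and Tfrc (0.51 and −2.35) lie on opposite sides of 0.

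Another 108 genes of iron and haem metabolism were present in all 6 files, and 90 passed the filter. In replicates 1 and 2, 19 of these 90 rose and 27 fell by limma, 51.1% against 39.1% of all genes, and their median difference was −0.07. The list was drawn up with earlier results of these data known, so nothing is read from these shares. The p-values given below for its genes are a description. The count of 46 became 28 without control 1, 19 without CIH 1 and 26 without CIH 2. Of the 16 genes with the largest called differences, 14 kept their call in every other fit of the gene tables.

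Reductases outside the STEAP family gave the largest fall of the list. Cyb561, an ascorbate-dependent transmembrane reductase of secretory vesicles, was 8.33 and 7.95 FPKM in control 1 and 2, against 0.241 and 0.239 in CIH 1 and 2. Its log2 difference was −2.88 (SE 0.069, limma adjusted p = 0.000354), and it was 1.74 in control 3 and 0.396 in CIH 3. Of 5 tested members of this group, 1 rose and 2 fell.

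Of 11 tested genes of the transferrin cycle and other iron uptake, 1 rose and 6 fell. Picalm, a clathrin adaptor needed for uptake of the transferrin receptor, rose from 21.4 and 18.4 to 38.1 and 38.2 FPKM (log2 difference 0.91, SE 0.0899, limma adjusted p = 0.00309) but was 117 in control 3 and 57.0 in CIH 3. Hpx, which encodes the haem scavenger hemopexin, fell from 4.12 and 4.72 to 2.47 and 2.07 FPKM (log2 difference −0.73, limma adjusted p = 0.00751).

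Among 9 tested genes of ferritin turnover and iron chaperones, 2 rose and 4 fell. Ncoa4, the receptor that delivers ferritin to autophagosomes, fell from 33.8 and 30.6 FPKM in control 1 and 2 to 10.5 and 11.3 in CIH 1 and 2 (log2 difference −1.48, SE 0.0829, limma adjusted p = 0.00094). It was 91.3 in control 3 and 22.5 in CIH 3. Ncoa4 was the only gene of the 90 called with all 6 libraries and the kind of table as a covariate (log2 difference −1.64, limma adjusted p = 0.0419). Bola2, a partner of the glutaredoxin Glrx3 in moving iron-sulphur clusters, rose from 2.47 and 3.35 to 8.59 and 7.81 FPKM (limma adjusted p = 0.00375), and Pcbp4, of the poly(rC)-binding family that holds the iron chaperones, from 6.42 and 7.05 to 12.3 and 12.5 (limma adjusted p = 0.00321). In the replicate 3 pair Bola2 was 14.0 and 12.5 FPKM and Pcbp4 11.7 and 32.3.

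Of 7 tested genes in the group of iron regulatory protein 2, 3 rose and 1 fell. This group also holds genes of a family of mRNA-destabilising zinc finger proteins, and 2 of these, Zfp36 and Zfp36l2, were among the 3. Zfp36l2 rose from 70.2 and 75.3 to 105 and 129 FPKM (limma adjusted p = 0.0129), with 64.8 FPKM in control 3 and 139 in CIH 3. Ireb2, iron regulatory protein 2 itself, was not called. Of 3 tested ferroxidases and export partners, 1 rose and 1 fell. Cp, the ferroxidase ceruloplasmin, fell from 17.7 and 15.8 to 6.85 and 6.65 FPKM (log2 difference −1.19, SE 0.0846, limma adjusted p = 0.00146). It was 15.3 in control 3 and 53.6 in CIH 3. One gene of the hepcidin axis, Neo1, was tested and was not called, and Hamp, the hepcidin gene, was listed at 0 in all 6 libraries.

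Mitochondrial iron import and iron-sulphur cluster assembly had 24 tested genes, of which 5 rose and 7 fell. The iron importer mitoferrin 1 (Slc25a37) rose from 1.57 and 1.61 to 2.80 and 2.72 FPKM (limma adjusted p = 0.00498), and the late assembly factor Bola3 from 19.4 and 22.5 to 33.5 and 26.7 (limma adjusted p = 0.0407). Isca1, which acts late in assembly too, fell from 24.9 and 21.8 to 14.6 and 12.8 FPKM (limma adjusted p = 0.00718). In the replicate 3 pair Slc25a37 was 2.36 and 7.00 FPKM, while CIH 3 was below control 3 for Bola3 (96.1 and 35.8) and Isca1 (84.9 and 29.3). The cytosolic assembly pathway had 7 tested genes, of which 2 rose and 0 fell.

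Haem synthesis had 12 tested genes, of which 1 rose and 3 fell. Alad, the enzyme that makes porphobilinogen, fell from 92.2 and 93.5 to 47.6 and 43.5 FPKM (log2 difference −1.01, SE 0.0753, limma adjusted p = 0.00158), with 105 FPKM in control 3 and 18.3 in CIH 3. Of 8 tested genes of haem breakdown and transport, 2 rose and 2 fell. Hmox1, the inducible haem oxygenase, rose from 194 and 202 to 293 and 269 FPKM (log2 difference 0.50, SE 0.0918, limma adjusted p = 0.0143) and was 62.6 and 90.9 in the replicate 3 pair. Its constitutive counterpart Hmox2 fell from 25.2 and 27.4 to 15.9 and 16.3 FPKM (limma adjusted p = 0.00394) and was 41.5 and 29.1 in that pair. The calls of Hmox1 and Bola3 were lost without control 1 and without CIH 1, and that of Bola3 also with the replicate number as a block and without the filter on low values.

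**Figure D4:**
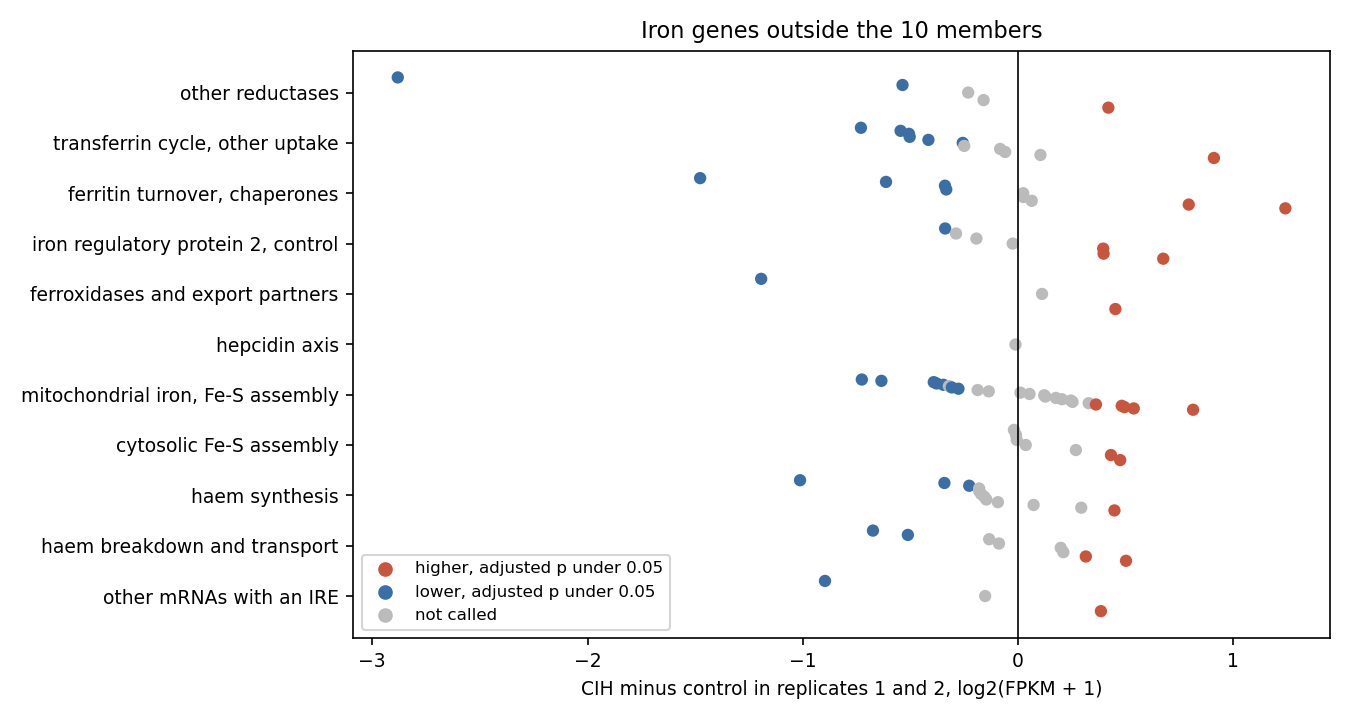
Difference between CIH and control in replicates 1 and 2, on the log2(FPKM + 1) scale, for the 90 tested iron genes outside the members, 1 point per gene and 1 row per group; red rose, blue fell and grey was not called. Cyb561 lies farthest left at −2.88 and Bola2 farthest right at 1.24.

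Among mRNAs outside the set that are known for an iron-responsive element, Cdc42bpa, a kinase of the cytoskeleton, fell from 10.8 and 9.98 to 4.97 and 5.28 FPKM (limma adjusted p = 0.00276). Epas1, which encodes hypoxia-inducible factor 2 alpha, was 24.3 and 23.8 FPKM in control 1 and 2, against 20.9 and 22.2 in CIH 1 and 2 and was not called (limma adjusted p = 0.134). Alas2 and Cdc14a did not pass the filter, and neither exceeded 0.228 FPKM in a gene table.

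Genes with profiles most like those of 3 members were ranked by Euclidean distance between log2(FPKM + 1) values centred within each kind of table, over 6 libraries. Names of microRNAs, small nucleolar RNAs, mitochondrial genes, pseudogenes and clones were skipped, so nearest means nearest among the tested genes left. Nearest to Steap1 were Ccl2 (distance 0.163), Hist1h4m, Pimreg, Ccl7 and Igfbp7 (0.353). Nearest to Steap4 were Mrpl18 (0.117), Cav1, Hspd1, Tmigd1 and Prelid3b (0.179), and among those nearest to Tfrc were Cyp2c70 (0.17), Cgnl1, Slc20a2 and Cavin2 (0.259). Ccl2, a chemokine that attracts monocytes, was 1.20 and 1.04 FPKM in control 1 and 2, 6.55 and 5.64 in CIH 1 and 2, 3.28 in control 3 and 13.4 in CIH 3.

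Core letters of the hypoxia response element, ACGTG or GCGTG on either strand, were searched in the 250 bases before each start site in the RefSeq promoter table (GRCm38.p6), where 8 of the 10 members have entries. At least 1 core was found at 7 of 15 start sites of these members, belonging to Tfrc, Fth1, Ftl1, Steap2 and Steap3, and at 38.6% of the 32851 start sites of all genes. Steap1, Steap4 and Aco1 had none in this window.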

How the data were processed

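The authors deposited FPKM for 6 libraries, a unit inferred from the values, since column headers hold nothing but the library name. Per the submitters' processing notes, the names are GRCm38, featureCounts 1.5.0-p3 and DESeq 1.8.3 without their roles. The aligner and the use of strand in counting are not stated in the sources used here. Replicates 1 and 2 are gene tables (54532 genes). Replicate 3 of each group has 50660 transcript entries, summed here over 21950 gene IDs. In the gene tables FPKM multiplied by joined exon length (GENCODE mouse release 21) lay within 0.05 of a whole fragment for 98.4% to 98.6% of genes under 50 fragments. Transcript-table depth is unknown.

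Values were taken as log2(FPKM + 1), which understates changes of low genes. Genes averaging 1 FPKM or more across all 6 libraries entered a limma 3.58.1 trend fit (R 4.3.3) on control 1, control 2, CIH 1 and CIH 2, group only, with Benjamini-Hochberg adjustment and calls under 0.05. The fit was tested on simulated data with the same spread for every gene, which does not check the calls made here. The replicate 3 pair has 1 library per group and no test. Deviations of same-numbered libraries from their group means correlated at 0.529, 0.587 and 0.581 over the 6 libraries, all over 0.1. Both libraries numbered 3 are transcript tables, so these correlations cannot tell pairing from the kind of table. Within the gene tables the correlation was −0.178, and the main fit used no pairing. Alternatives were the pseudocount, filters, scaling, each replicate left out, a replicate block and fits of all 6 libraries. Members and lists were chosen with earlier results of these data known. Named genes outside the members were the 8 largest called differences in each direction and the genes known for an iron-responsive element. A few genes that this rule or a list would name are not reported here. Python 3.11.15 made tables and figures.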

Additional observations from a re-analysis of the deposited data

How the results depend on the processing

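Over the alternatives that kept to the gene tables with all 4 libraries, called members stayed between 5 and 7 and other called iron genes between 35 and 47. With a replicate block the counts were 5 and 35, where Steap2, Fth1 and, among the other genes named, Bola3 lost their calls and no other named gene did, and with the crossed pairing (control 1 with CIH 2, chosen after seeing the data) 7 and 47. Leaving out 1 library gave 4 to 5 members and 19 to 35 other genes. Fits of all 6 libraries called 0 members and 0 other genes with the group alone, 1 and 1 with the kind of table as a covariate, and 0 and 0 with a replicate block (added after seeing the data). By limma's unadjusted p under 0.05, the fits with the group alone and with the block gave 1 and 1 member and 6 and 12 other genes. In each of these 3 fits Steap4 (−0.13) and Tfrc (−0.45) changed sign, as did 2 members that were not called, Aco1 (0.03 to −0.88) and Slc40a1 (−0.05 to 0.62), since the replicate 3 pair goes against replicates 1 and 2. In the replicate 3 pair Fth1 turned to −0.39 by the median of ratios and −0.13 by the upper quartile, and its higher members were 5 instead of 6. With 1 library left in an arm, the lone library is assumed to vary like the other group. With 2 libraries a group, low genes such as Slc40a1 rest on 35 to 53 fragments.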
